A study of Mus musculus with 28 samples.

Results

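The 54 keratin-associated protein (Krtap) genes measured here encode the matrix proteins of the hair shaft. They were the gene rows whose symbol starts with Krtap and that had at least 10 counts in at least 4 of 28 libraries, 54 of 56 Krtap symbols in a table of 29068 genes. The libraries came from skin at the wound site of C57BL/6J mice with intact Mlkl (MLKL+/+), labelled as natural wound healing, with 4 libraries on each of days 0, 3, 5, 7, 10, 12 and 14. The labels name day 0 as the control. The study itself names its first collection day 1, and it defines day 1 as the day of wounding in one place and counts it as a day after injury in another. The mice were 8 weeks old and of both sexes, their backs were shaved before a 6-mm punch down to the fascia, and the tissue taken included the scab and the epithelial margins. All groups carry the same genotype and treatment label. Whether the library group labelled day 0 is that collection, and whether its skin was unwounded, is not given in the sources used here, and every comparison with day 0 is to be read with that limit. The labels do not say that the 4 libraries of a day came from separate animals, so p-values measure the spread between these libraries only. Library totals lay between 36706513 and 40655764 counts. All 54 genes entered the test among 18107 genes, and all 54 met the count rule with any 1 day left out. With days 12 and 14 left out together, 52 did, and Krtap5-2 and Krtap5-3 did not.

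A hair shaft is built by matrix cells at the base of a growing follicle. These cells first make hair keratins, which form filaments, and later make the keratin-associated proteins, which cross-link the filaments through cysteine bonds or pack around them. Follicles make them while they grow a shaft (anagen) and stop when they rest (telogen). All 54 genes had 1 exon, as GENCODE annotates them. On the GRCm38.p6 positions of RefSeq, which match the mm10 build of the files, 23 of them lay on chromosome 11 (chr11:99550132-99993994), 22 on chromosome 16 (chr16:88610709-89571183), 5 on chromosome 7 (chr7:142174532-142304503), 3 on chromosome 10 (chr10:77720586-77837251) and 1, Krtap28-13, on chromosome 1 (chr1:83060930-83061921).

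The proteins fall into types by composition. Cysteine codons made up at least 30% of the coding sequence in 20 genes (30.3% to 42.8%), among them the Krtap4, Krtap5 and Krtap10 genes. Glycine and tyrosine codons together made up at least 35% in 14 others (47.5% to 69.2%), among them the Krtap6 and Krtap19 genes and Krtap8-1. The remaining 20 passed neither limit, and they included Krtap7-1 at 29.9% glycine and tyrosine. Codons 11 to 40 are shown for 2 cysteine-rich genes that the results turn on and for 1 glycine-tyrosine gene, 5′ to 3′, because they show the repeats behind these types. Capitals mark cysteine codons in Krtap5-2 (12 of 30) and Krtap4-13 (11 of 30), and glycine and tyrosine codons in Krtap6-1 (22 of 30).
Krtap5-2: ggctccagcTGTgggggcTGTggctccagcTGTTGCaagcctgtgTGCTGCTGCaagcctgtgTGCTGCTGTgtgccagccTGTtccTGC
Krtap4-13: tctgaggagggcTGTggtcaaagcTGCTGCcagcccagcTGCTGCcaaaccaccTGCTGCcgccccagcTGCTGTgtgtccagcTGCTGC
Krtap6-1: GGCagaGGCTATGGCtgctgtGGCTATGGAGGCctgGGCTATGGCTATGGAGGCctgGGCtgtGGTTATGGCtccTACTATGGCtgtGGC

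The letters TATAAA stood on the forward strand within the 50 bases before the start in 32 of 49 Krtap genes with a RefSeq promoter entry (65.3%), against 863 of 32851 promoters of the same length in the table (2.6%). Its first base lay 27 to 49 bases before the start, with a median of 31. The 80 bases before the start are shown for the 5 Krtap5 genes of chromosome 7, because their day 7 counts differ from gene to gene, and for Krtap8-1, which had the highest mean level. All are on GRCm38.p6, 5′ to 3′ on the gene's strand, with TATAAA in capitals. Krtap5-1 is on the minus strand at chr7:142297135-142297214, Krtap5-2 on the minus strand at chr7:142176006-142176085, Krtap5-3 on the plus strand at chr7:142201284-142201363, Krtap5-4 on the plus strand at chr7:142303422-142303501, Krtap5-5 on the minus strand at chr7:142229972-142230051, and Krtap8-1 on the minus strand at chr16:89487953-89488032.
Krtap5-1: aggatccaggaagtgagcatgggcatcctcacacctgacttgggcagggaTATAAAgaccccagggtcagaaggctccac
Krtap5-2: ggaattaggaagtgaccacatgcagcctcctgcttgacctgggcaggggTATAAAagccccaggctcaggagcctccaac
Krtap5-3: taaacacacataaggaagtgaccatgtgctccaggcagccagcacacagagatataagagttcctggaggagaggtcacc
Krtap5-4: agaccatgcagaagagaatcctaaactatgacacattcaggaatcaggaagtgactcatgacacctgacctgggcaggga
Krtap5-5: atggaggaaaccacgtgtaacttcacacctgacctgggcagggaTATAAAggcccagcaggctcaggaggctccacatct
Krtap8-1: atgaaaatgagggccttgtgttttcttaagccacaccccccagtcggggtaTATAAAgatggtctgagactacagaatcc
TATAAA was in this window of Krtap5-1, Krtap5-2, Krtap5-5 and Krtap8-1, and not in that of Krtap5-3 or Krtap5-4. Krtap5-4 holds it elsewhere in its promoter entry, and Krtap5-3 does not. The window of Krtap5-4 ends in the letters that stand directly before TATAAA in Krtap5-5. What falls in a window depends on the annotated start. A match is a description of these letters only. In the window from 250 bases before to 50 after the start, CAATAAA or TCGTAAA on either strand was found in 1 of 49 Krtap promoters (2.0%) and in 5.2% of all, and CTTTGAA, its variant CTTTGAT, its variant CTTTGTA or its variant CTTTGTT in 18 of 49 (36.7%) and in 16.9% of all. These motif searches were chosen with results known.

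The Krtap genes were nearly silent on days 3, 5 and 10 and were expressed on days 0, 7, 12 and 14. Their summed share of all counts was 0.000178% ± 6.82e-05 (SD, n = 4), 0.000582% ± 0.000190 and 0.000433% ± 5.28e-05 at the 3 low days, in time order. Days 7, 12 and 14 stood at 0.109% ± 0.0165, 0.365% ± 0.0702 and 0.386% ± 0.0517. On day 0 the 4 libraries held 0.172%, 0.0431%, 0.0344% and 0.00771%, a wide spread. Each library of days 7, 12 and 14 lay above each library of days 3, 5 and 10. The joint test of any difference among the 6 wound days passed for 54 of 54 genes, with a highest adjusted p of 4.7e-07 (edgeR quasi-likelihood F-test, Benjamini-Hochberg), and for 85.1% of all genes tested. In bulk tissue, fewer cells of a type and less RNA per cell cannot be told apart.

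**Figure D1:**
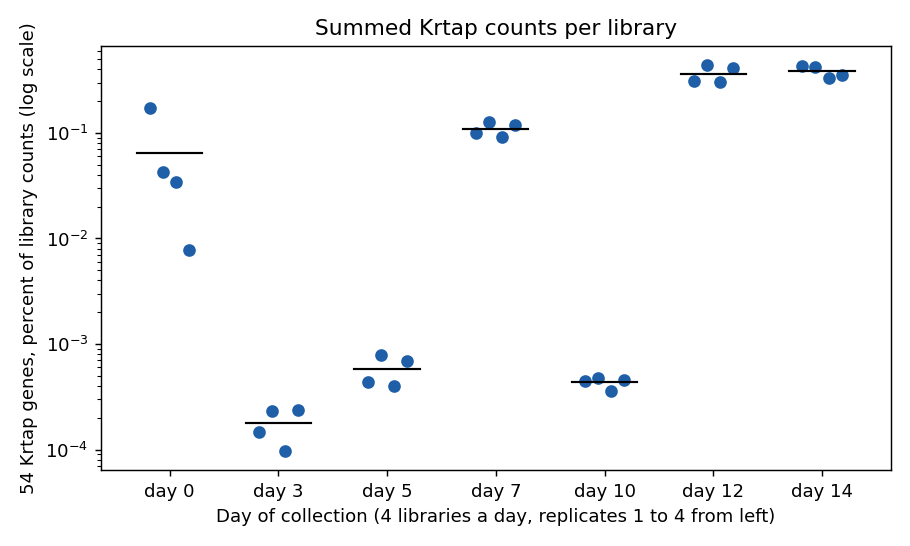
Summed counts of the 54 Krtap genes as percent of each library's counts (vertical axis, log scale) by day of collection. Each point is 1 library and each line the mean of 4. The libraries of days 3, 5 and 10 sit between 9.72e-05% and 0.000788%, and the 4 libraries of day 0 spread from 0.00771% to 0.172%.

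The most abundant member by length-scaled level was Krtap8-1, a glycine-tyrosine protein of the shaft. Its FPKM (fragments scaled by gene length and library total) was 317, 61.6, 74.3 and 27.7 in the 4 libraries of day 0. Day 3 libraries held 0.177 to 0.399, those of day 5 held 0.299 to 1.23 and those of day 10 held 0.612 to 1.31. Day 7 brought 174 to 240, followed by 617 to 876 (day 12) and 893 to 1170 (day 14). No library of days 3, 5 or 10 came near those of the other days. Krtap7-1, another shaft protein, was next, at 232 FPKM ± 35.6 (SD, n = 4), 693 ± 111 and 1046 ± 149 for days 7, 12 and 14. Krtap15 followed with 116 ± 13.4, 284 ± 62.6 and 355 ± 55.0 FPKM on the same days. The lowest mean over all libraries was that of Krtap5-1, at 0.842 FPKM. By mean FPKM, day 12 was highest for 36 members, day 14 for 16 and day 7 for 2, Krtap4-13 and Krtap4-8, while none peaked on another day.

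**Figure D2:**
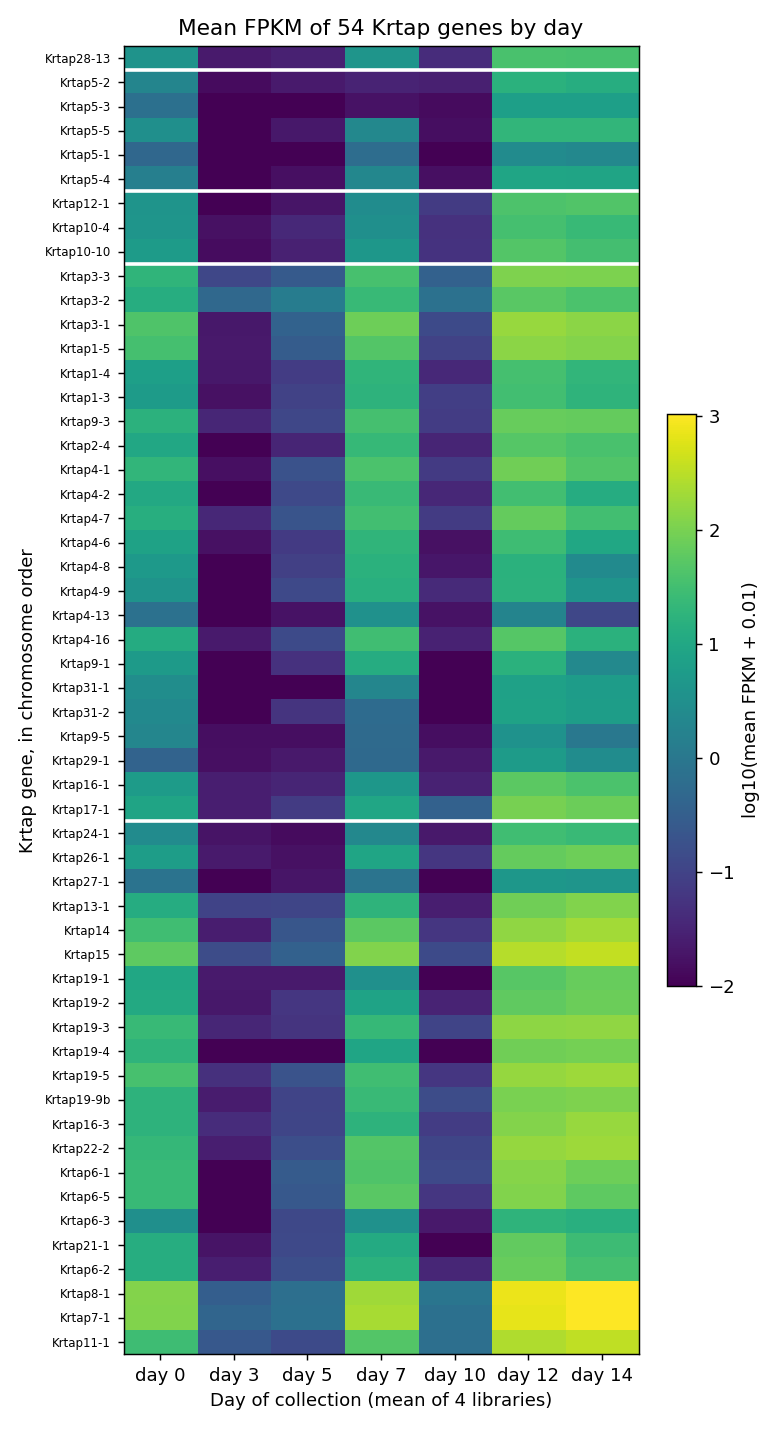
Mean FPKM of each of the 54 Krtap genes (rows, in chromosome order, white lines between chromosomes) on each day (columns, mean of 4 libraries), as log10 of FPKM plus 0.01. The columns of days 3, 5 and 10 are dark in nearly all rows, while Krtap5-2 and Krtap5-3 are also dark on day 7.

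On day 0, the 4 libraries differed from each other in every member. Replicate 1 had the highest level in 54 of 54 members and replicate 4 the lowest in 49, and 43 members fell in the order 1, 2, 3, 4. The median ratio of replicate 1 was 4.72 to replicate 2, 5.56 to replicate 3 and 44.2 to replicate 4 over members with counts there. The median coefficient of variation over members was 122% on day 0, against 20.5%, 21.2% and 12.7% for days 7, 12 and 14. Other genes of the growing follicle moved with it in part. Krt85, a keratin of the shaft's early cells, had 43.5 FPKM in replicate 1 and 7.87, 10.5 and 10.5 in the others. Krt71 of the inner root sheath had 273, 84.5, 78.0 and 36.1 FPKM. Of the follicle stem cell markers, Lgr5 had between 3.44 and 3.51 FPKM in all 4 libraries, while Cd34 had 160, 290, 287 and 132 and Krt15 had 638, 534, 547 and 825. Basal keratinocyte genes held 0.573%, 0.290%, 0.300% and 0.659% of counts and skeletal muscle genes 2.69%, 1.67%, 1.70% and 2.83%, so replicates 1 and 4 stood apart from 2 and 3 in these lists. Their part in the Krtap spread was not tested.

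All 54 Krtap genes were lower on days 3, 5 and 10 than on day 0. A gene was called when its log2 fold change passed 1.5 in either direction and its Benjamini-Hochberg adjusted p was under 0.05 in edgeR's quasi-likelihood test. On day 3, 54 of 54 were called lower, where 12.3% of all genes tested were. On day 5, 54 were called lower against 8.22% of all genes, and on day 10, 54 against 5.02%. No member was called higher on these days, where 6.44%, 5.52% and 4.22% of all genes were. No member exceeded 35 counts in any library of day 3, 59 in day 5 or 33 in day 10, while the top counts of days 12 and 14 were 20276 and 29715. All 4 libraries stood at 0 for 18, 4 and 8 members, in the order of days 3, 5 and 10. The median log2 fold changes, in that order, were -9.10, -7.03 and -7.88, and -8.14, -6.90 and -7.44 with the members at 0 set to the bound of 3 counts a library. Over all genes tested the median was -0.03, -0.02 and -0.02.

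Among these losses, Krtap6-5, a glycine-tyrosine gene, had 1389, 500, 390 and 26 counts on day 0 and 0 in every library of day 3, so it was at least 184-fold lower. Krtap19-4 had 743, 83, 72 and 0 counts on day 0 and none on days 3, 5 and 10, which gives a bound of at least 72.1-fold lower on day 3. Because of its day 0 library at 0, its groups overlap. Day 0 replicate 1 holds most of the day 0 counts of Krtap6-5 and Krtap19-4, so both bounds lean on that library. Krtap3-2, a cysteine-containing matrix protein, changed least, with 11 to 35 counts (day 3), 49 to 59 (day 5) and 25 to 31 (day 10). The log2 fold changes from day 0, in the same order, were -4.71 ± 0.50 (SE), -3.36 ± 0.43 and -4.29 ± 0.47, the smallest losses of the 54 in each comparison. Reads of Krtap3-2 can be shared with Krtap3-3, since 25.1% of the 100-base windows of its transcript also occur there. The 4 libraries lay below all 4 of day 0 in 46 members on day 3 (28.6% of all genes), 40 on day 5 (23.2%) and 46 on day 10 (21.9%).

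Between days 3 and 5, no member was called, where 1.79% of all genes were called higher and 0.607% lower, and 2 members had an unadjusted p under 0.05. DESeq2 called 14 members higher, where 1.99% of all genes were in that fit, and edgeR on the 24 wound libraries 12, where 2.03% were, so the call depends on the fit. Krtap6-1 showed the largest value, with 0 counts in every library of day 3 and 2 to 15 on day 5, at least 2.04-fold higher (not called, adjusted p = 0.352, edgeR quasi-likelihood, Benjamini-Hochberg). Counts this low limit the comparison.

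On day 7 the genes had returned. Against day 5, 51 of 54 members were called higher, where 2.23% of all genes were, and none was called lower, where 1.08% were. The 3 not called were Krtap5-2, Krtap5-3 and Krtap31-2. Krtap8-1 rose by 8.18 ± 0.62 on the log2 scale (adjusted p = 4.74e-11, edgeR quasi-likelihood, Benjamini-Hochberg). Against day 0 the median log2 fold change was 0.49, and only 9 members were called. The day 7 libraries held 0.0911% to 0.127% of counts in Krtap genes, below day 0 replicate 1 (0.172%). They lay above the other day 0 libraries (0.00771% to 0.0431%). Without day 0 replicate 1, the summed level was 3.85 times that of day 0. Those called higher were Krtap4-13, Krtap4-9, Krtap4-8, Krtap1-3 and Krtap1-4 (4.52% of all genes), all on chromosome 11. Those called lower were Krtap5-2, Krtap5-3, Krtap31-2 and Krtap9-5 (4.64% of all genes), and Krtap31-2 and Krtap9-5 are on chromosome 11 as well. Several of these genes fall outside the naming rule and were named after their values were seen. Krtap31-2 is uncertain, since 31.2% of its 100-base windows also occur in Krtap31-1. It had 312, 28, 15 and 2 counts on day 0 and 18, 22, 23 and 21 on day 7. Krtap9-5 had 308, 25, 20 and 0 on day 0 and 18, 36, 12 and 31 on day 7. Replicate 1 holds most of the day 0 counts of both genes. Krtap4-13 had the largest rise at 2.26 ± 0.44, with 115, 174, 73 and 99 counts on day 7 against 47, 32, 11 and 4 on day 0, so the groups did not overlap. In 5 of 54 members all libraries of day 7 lay above those of day 0, a smaller share than the 19.9% of all genes. The number called depends on single libraries, most of all on day 0 replicate 1. Without day 7 replicate 2, 2 members were called higher and 3 lower, where 4.44% and 4.64% of all genes were in that fit. Without day 0 replicate 1, 42 members were called higher and 2 lower, where 5.55% and 4.9% of all genes were in that fit. edgeR on the 8 libraries of these days alone called 2 of the 52 members it tested higher and none lower, where 3.3% and 4.52% of all genes were.

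Krtap5-2 and Krtap5-3, cysteine-rich genes of the chromosome 7 group whose family is known from the hair cuticle, did not return on day 7. Krtap5-2 had 1, 3, 0 and 1 counts on day 7, after 401, 36, 15 and 0 on day 0, and 731, 1233, 817 and 1025 on day 12. Krtap5-3 had 0, 1, 1 and 0 counts on day 7, after 160, 21, 1 and 0 on day 0, and 397, 552, 341 and 549 on day 12. In the same libraries of day 7, Krtap5-5 had 88 to 129 counts, Krtap5-4 had 73 to 103, and Krtap5-1 had 30, 8, 11 and 24, after 41, 13, 2 and 0 on day 0. Krtap5-1 and Krtap5-4 were chosen here after their values were seen. Counts of Krtap5-2 summed over the libraries of day 7 were 1.2% of those of Krtap5-5, and 98.4% on day 12 and 83.0% on day 14. Krtap5-2 and Krtap5-3 met the count rule only through days 12 and 14, where they are high. Their difference between days 7 and 12 is therefore given as counts, and nothing is drawn from their calls in that comparison. From day 7 to day 12 the log2 fold change was 3.06 ± 0.59 for Krtap5-5, 1.93 ± 0.54 for Krtap5-4 and 1.96 ± 0.65 for Krtap5-1 (all 3 called, adjusted p 0.0191 or below, edgeR quasi-likelihood, Benjamini-Hochberg). Neither Krtap5-2 nor Krtap5-3 shares a 100-base window with another Krtap transcript.

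**Figure D3:**
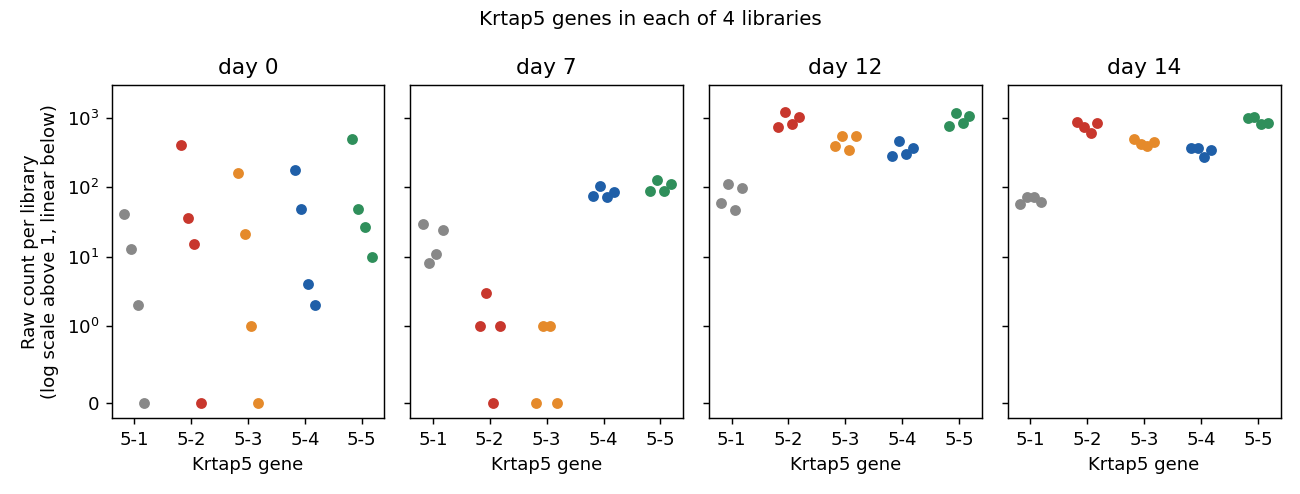
Raw counts of the 5 Krtap5 genes in each of 4 libraries on days 0, 7, 12 and 14 (vertical axis, log scale above 1 and linear below). On day 7 Krtap5-2 and Krtap5-3 have at most 3 counts, while Krtap5-4 and Krtap5-5 have at least 73.

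Day 10 was a second low point. Against day 7, 52 of 54 members were called lower, where 2.98% of all genes were, and none was called higher, where 1.24% were. Krtap5-2 and Krtap5-3, already near 0, were the 2 not called. Krtap21-1, a glycine-tyrosine gene, had 366, 375, 248 and 436 counts on day 7 and 0 in every library of day 10, so it was at least 121-fold lower. In 52 members all 4 libraries of day 10 lay below all 4 of day 7, which held for 20.1% of all genes. From day 10 to day 12, 54 of 54 members were called higher, where 3.32% of all genes were, and none was called lower, where 2.36% were. For Krtap5-2 and Krtap5-3 among the 54, the count rule itself rests on days 12 and 14. Krtap21-1 rose to between 1559 and 2504 counts, at least 587-fold. The smallest rise was that of Krtap3-2, at 6.11 ± 0.47 on the log2 scale.

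The hair keratins did not all follow the Krtap genes on day 10. Krt35 and Krt85, keratins that matrix cells make first, had 21.6 FPKM ± 1.04 and 21.8 ± 1.84 (SD, n = 4) on day 10, against 12.7 ± 3.82 and 18.8 ± 4.45 on day 7. Neither was called between these days. Of the 16 hair shaft keratins, 12 were called lower on day 10 than on day 7, among them Krt33b, a keratin of the cortex, at -5.44 ± 0.54, and 4 were not called. In the inner root sheath, the layer that moulds the shaft, 6 of 8 genes were called lower, Tchh at -4.95 ± 0.44 and Krt71 at -2.30 ± 0.36. Of 12 transcription factors of the hair matrix none was called. Hoxc13, which acts on hair keratin genes, had 3.63 FPKM ± 0.417 on day 7 and 5.40 ± 0.432 on day 10. Lef1, which acts in matrix cells downstream of Wnt, rose by adjusted p alone at 1.29 ± 0.20 on the log2 scale, and Foxn1, needed for shaft differentiation, fell likewise at -1.37 ± 0.26 (adjusted p = 1.43e-05 and 0.000137, edgeR quasi-likelihood, Benjamini-Hochberg). The summed FPKM of the Krtap genes was 5.68 ± 0.777 times that of all 16 hair keratins on day 7, 0.107 ± 0.0123 times on day 10, 2.90 ± 0.233 times on day 12 and 1.89 ± 0.138 times on day 14. Set against only Krt35 and Krt85, which were not called on day 10, it was 49.5 ± 11.8 times their sum on day 7, and 0.128 ± 0.0168 times on day 10. It was 12.7 ± 0.862 times on day 12 and 7.03 ± 0.827 times on day 14. Of 8 melanocyte genes, which mark the pigment cells of a growing follicle, 6 were called higher on day 10 than on day 7 and none lower. Beside all these lists, 2.98% of all genes tested were called lower between these days and 1.24% higher.

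**Figure D4:**
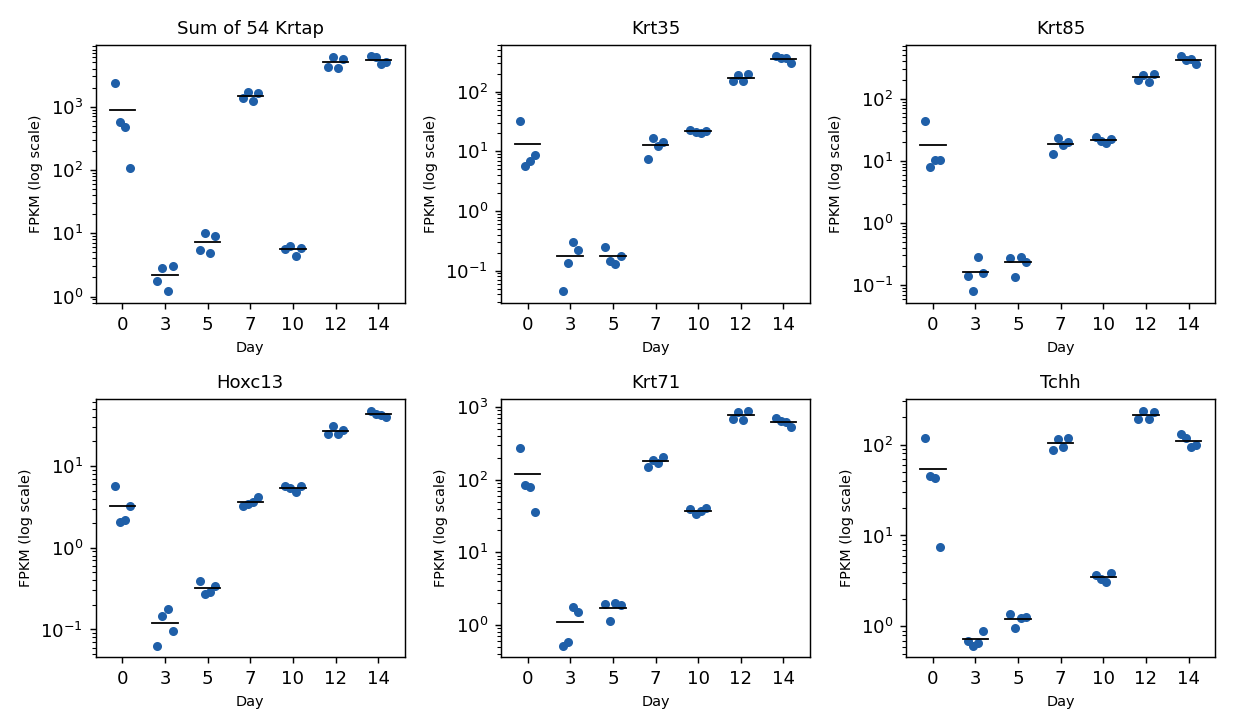
FPKM per library (points, vertical axis, log scale) and day mean of 4 libraries (lines) of the Krtap sum, the hair keratins Krt35 and Krt85, the transcription factor Hoxc13 and the inner root sheath genes Krt71 and Tchh, by day. On day 10 the Krtap sum is 5.54 FPKM, below its day 7 level of 1495, while Krt35 and Krt85 are at 21.6 and 21.8 FPKM.

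On day 12 the genes stood above their day 0 levels. Against day 0, 48 of 54 members were called higher, where 3.69% of all genes were, and none was called lower, where 3.38% were. With edgeR on the 8 libraries of these days alone, 26 of the 54 were called higher (2.95% of all genes in that fit), and without day 0 replicate 1 all 54 were (4.55%). The called genes include Krtap5-2 and Krtap5-3, which met the count rule only through days 12 and 14, here and in the comparison of day 14 with day 0. The 48 members with no overlap between the groups compare with 18.6% of all genes. The median log2 fold change was 2.31, against -0.04 over all genes. Krtap29-1, a chromosome 11 gene, rose the most, at 3.75 ± 0.54, from 50, 0, 13 and 1 counts to 186, 283, 217 and 307. Krtap9-5 had the smallest value, at 0.73 ± 0.65, with 142 to 194 counts on day 12 against 308, 25, 20 and 0 on day 0. Against day 7, a comparison added after the data were seen, 32 members were called higher (2.66% of all genes) and none lower (3.45%). The 32 include Krtap5-2 and Krtap5-3, which met the count rule only through days 12 and 14. By chromosome, 17 of 22 on chromosome 16 and 6 of 23 on chromosome 11 were called higher there. Krtap4-13 had the smallest value at -1.11 ± 0.41.

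The leading member of each of the 26 subfamilies, that with the most counts, had log2 fold changes of 0.88 to 3.75 from day 7 to day 12. Of the 26, 17 were called higher and 9 were not, where 2.66% of all genes were called higher. Those not called ran from Krtap9-3 at 0.88 ± 0.46 (SE), Krtap4-1 at 0.96 ± 0.48, Krtap2-4 at 0.96 ± 0.42 and Krtap3-1 at 1.02 ± 0.44 to Krtap15, Krtap14, Krtap1-5, Krtap7-1 and Krtap6-1 at 1.15 to 1.47 on the log2 scale. Those called began with Krtap22-2 at 1.66 ± 0.40, Krtap8-1 at 1.71 ± 0.39, Krtap31-1 at 1.77 ± 0.66 and Krtap13-1 at 2.08 ± 0.39. Krtap21-1, Krtap19-5, Krtap27-1 and Krtap11-1 followed at 2.28 to 2.31, and Krtap26-1 at 2.79 ± 0.28. Krtap5-5, Krtap28-13, Krtap10-10, Krtap17-1, Krtap29-1, Krtap16-1 and Krtap24-1 had 3.06 to 3.61. The largest was Krtap12-1, which went from 2.80 FPKM ± 0.598 (SD, n = 4) to 41.6 ± 10.5, a log2 fold change of 3.75 ± 0.56. Of whole subfamilies, all 6 Krtap19 genes were called higher, as were, for example, the 2 Krtap10 and the 2 Krtap16 genes. None of the 8 Krtap4 genes was called, nor any of the 3 Krtap1 genes. By chromosome, the median log2 fold change from day 7 to day 12 was 0.96 over the 23 genes of chromosome 11 and 2.27 over the 22 of chromosome 16, beside -0.00 over all genes tested. It was 3.36 over the 3 of chromosome 10. The differences between these groups of genes were not tested.

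Most members were also above day 0 on day 14. In that comparison 37 members were called higher, where 5.1% of all genes were, and 1, Krtap4-13, was called lower, where 8.71% were. Krtap26-1 rose the most, at 3.55 ± 0.29, from between 117 and 528 counts to between 2696 and 3363. Krtap4-13 had 5, 2, 5 and 2 counts on day 14, against 47, 32, 11 and 4 on day 0, and its log2 fold change was -2.82 ± 0.59 (adjusted p = 0.000208, edgeR quasi-likelihood, Benjamini-Hochberg). Its lowest day 0 library lies within the range of day 14, and limma on log2(FPKM + 1) and edgeR on the 8 libraries alone called no member lower. Without day 0 replicate 1, 47 members were called higher, where 6.34% of all genes were in that fit.

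Between days 12 and 14, 7 of the 12 cysteine-rich genes of chromosome 11 fell and no member rose past the limits. This group of 12 was formed after the values were seen, and it holds all 7 genes called. In this comparison 7 members were called lower, where 2.59% of all genes were, and none was called higher, where 0.712% were. The 7 were Krtap4-13 (-3.96 ± 0.56), Krtap9-1 (-2.76 ± 0.56), Krtap4-8 (-2.67 ± 0.45), Krtap4-9 (-2.09 ± 0.36), Krtap9-5 (-1.85 ± 0.68), Krtap4-16 (-1.63 ± 0.46) and Krtap4-6 (-1.52 ± 0.44), on the log2 scale with SE, and all but Krtap4-13 were named after their values were seen. Krtap4-13 fell from 46, 58, 55 and 78 counts to 5, 2, 5 and 2. Krtap4-8 fell from between 371 and 437 counts to between 53 and 66, and in all 7 the groups did not overlap. The other 5 cysteine-rich genes of chromosome 11 were not called, with -1.34 ± 0.43 for Krtap4-2, -1.10 ± 0.39 for Krtap4-7, -0.91 ± 0.48 for Krtap4-1, -0.72 ± 0.38 for Krtap1-3 and -0.27 ± 0.41 for Krtap17-1. All 7 called have at least 30% cysteine codons, and the 5 Krtap5 genes, which also do, had log2 fold changes between -0.25 and 0.00. DESeq2 called 4 of the members lower, and Krtap9-5 lost its call without any of 5 single libraries, with an adjusted p between 0.0519 and 0.0705 (edgeR quasi-likelihood, Benjamini-Hochberg).

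The largest positive value was that of Krtap7-1, at 0.61 ± 0.37, with 14634 to 20118 counts on day 12 and 21717 to 29715 on day 14. It did not pass the test over 28 libraries (adjusted p = 0.18), and it passed with the 24 wound libraries (adjusted p = 8.35e-05, edgeR quasi-likelihood, Benjamini-Hochberg), below the fold limit. By adjusted p alone, that fit counted 24 members lower and 10 higher, where 28.7% and 22.8% of all genes were, and the fit of 28 libraries 9 lower (25.3% of all genes) and none higher (19.9%). The 4 libraries of day 14 lay below all 4 of day 12 in 21 members (26% of all genes) and above in 5 (20.7%).

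The mix of Krtap counts shifted with these changes. The 20 genes rich in cysteine codons held 20.2% ± 2.06 (SD, n = 4), 16.6% ± 0.357 and 9.46% ± 0.50 of all Krtap counts for days 7, 12 and 14. The 8 Krtap4 genes alone held 15.7% ± 1.86, 7.96% ± 0.325 and 3.10% ± 0.224. The 14 glycine-tyrosine genes held 25.3% ± 0.768, 30.7% ± 0.993 and 32.3% ± 0.687, but within them the 4 Krtap6 genes went from 6.62% ± 0.705 and 5.81% ± 0.517 to 3.12% ± 0.163. Krtap7-1 held 13.2% ± 1.09, 11.9% ± 0.441 and 16.8% ± 0.868. These shares are of raw counts, which weigh long transcripts more, and they are given as a description with no test.

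**Figure D5:**
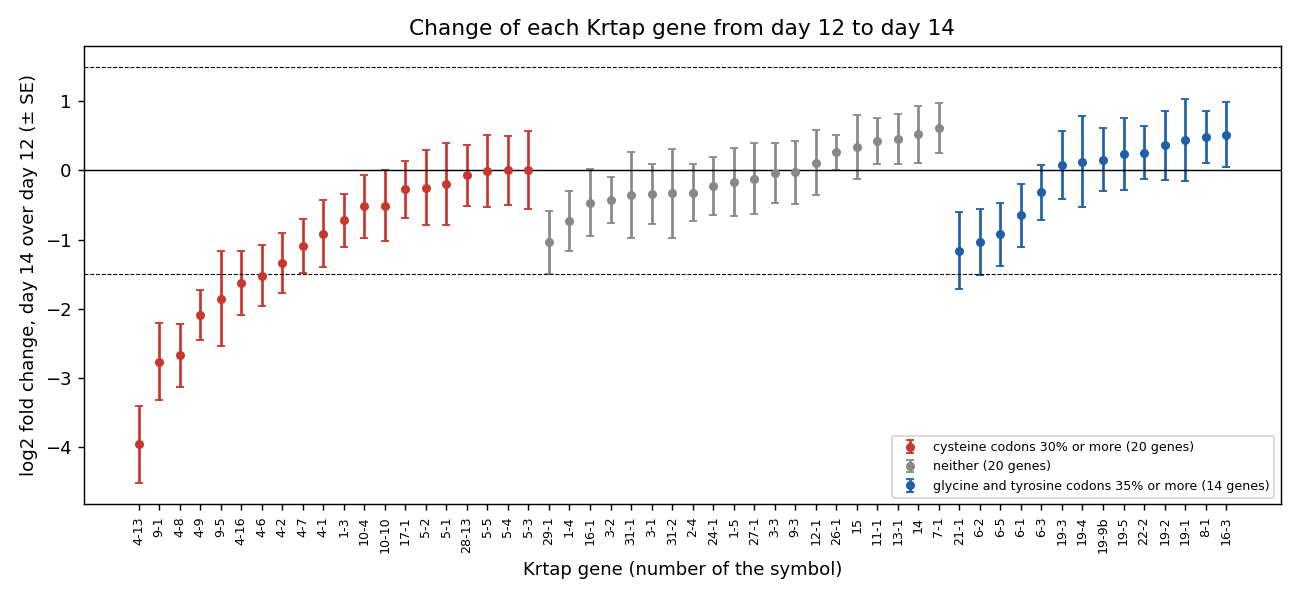
log2 fold change of each of the 54 Krtap genes from day 12 to day 14 (points, with SE as bars), grouped by codon composition, with dashed lines at the fold limit of 1.5. The 7 genes called lower are all in the group with at least 30% cysteine codons, down to -3.96 for Krtap4-13, and no gene lies above 0.61.

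Genes of other cell types in the skin moved between the days as well. With the Krtap loss from day 0 to days 3 and 5, the 6 leukocyte genes went from 0.0321% ± 0.00450 (SD, n = 4) of counts to 0.488% ± 0.0454 and 0.223% ± 0.0153, with 5 and 4 of them called higher. S100a9 had the most counts of them on day 3, between 93324 and 120236, after 191 to 728 on day 0. Adgre1 rose less, from between 2906 and 5113 to between 7668 and 8200. The 6 skeletal muscle genes went from 2.22% ± 0.625 to 0.448% ± 0.0460 and 0.444% ± 0.0371, with 5 called lower each time. The 4 suprabasal keratinocyte genes went from 0.275% ± 0.0175 to 0.0798% ± 0.0133 and 0.182% ± 0.0116, with 2 and none called lower. The 4 wound edge keratinocyte genes went from 0.0519% ± 0.0112 to 0.245% ± 0.0258 and 0.186% ± 0.0168, with 3 called higher each time. The 5 basal keratinocyte genes, Krt5 and Krt14 among them, went from 0.455% ± 0.188 to 0.347% ± 0.0425 and 0.305% ± 0.0171, with 1 and none called lower. In the follicle, 15 of 16 hair shaft keratins and 8 of 8 inner root sheath genes were called lower at both days, as were 7 of 12 hair matrix transcription factors. Over all genes tested, 12.3% and 8.22% were called lower on days 3 and 5, and 6.44% and 5.52% higher.

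At days 7, 10, 12 and 14, the basal keratinocyte shares were 0.303% ± 0.0210, 0.433% ± 0.0286, 0.362% ± 0.00583 and 0.480% ± 0.0402, and none of these genes was called between consecutive days. Leukocyte shares were 0.114% ± 0.0165, 0.0524% ± 0.00163, 0.0303% ± 0.00129 and 0.0154% ± 0.000968. Suprabasal keratinocyte shares were 0.275% ± 0.0206, 0.191% ± 0.0161, 0.306% ± 0.0170 and 0.119% ± 0.0172, with 1 of 4 genes called lower from day 12 to day 14 and none called between the earlier of these days. Wound edge keratinocyte shares were 0.154% ± 0.0187, 0.139% ± 0.0102, 0.102% ± 0.00629 and 0.170% ± 0.0103. Of these 4 genes, 2 were called lower from day 10 to day 12 and 1 from day 12 to day 14. Over all genes, 2.36% and 2.59% were. Most of the day 14 share was Krt17, which went from between 30933 and 36413 counts on day 12 to between 54138 and 63431. Krt6a went from between 4853 and 5411 to between 5780 and 7658. Krt6b fell from between 971 and 1509 to between 230 and 564, and Krt16 from between 1398 and 1822 to between 923 and 1305. Skeletal muscle shares were 0.421% ± 0.0168, 0.862% ± 0.0873, 0.646% ± 0.0366 and 0.493% ± 0.0354. The part of these changes in the Krtap values was not tested.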

How the data were processed

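Skin RNA was sequenced in 28 libraries, grouped by the day in their labels. The authors deposited raw gene counts and FPKM values as tables of the whole series. The submitters' processing notes name fastp, R 3.2.0 and mm10. The aligner, counter, annotation and strandedness are not given in the sources used here. The FPKM values carry no more than the deposited counts, gene lengths and library totals. The design text speaks of 5 repeats, and 4 libraries a day were analysed here. Counts were tested in edgeR 4.0.16 (R 4.3.3), with TMM scaling, the low-count filter, a quasi-likelihood fit over all 28 libraries (21 residual degrees of freedom) and Benjamini-Hochberg adjustment over 18107 genes. A call needed an absolute log2 fold change over 1.5 and an adjusted p under 0.05. Bounds for genes at 0 used a floor of 3 counts per library, and intervals (95%) and floors cover counting error only. DESeq2 1.42.0 and limma 3.58.1 on log2(FPKM + 1) were alternatives, with other scalings, no filter, a replicate block, fewer libraries and each library left out. The model code was tested on simulated data.

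Named genes were the member with the highest mean CPM of each subfamily, the members with the largest and smallest log2 fold change of each comparison, the 3 with the highest mean FPKM, members called against the majority, and 8 hair genes (Hoxc13, Foxn1, Lef1, Krt85, Krt35, Krt33b, Krt71 and Tchh) with the leading gene of each related list. Others were named after their values were seen. The members and lists were chosen with earlier results of these data known. Codon shares and transcript windows came from GENCODE M21, positions and promoters from RefSeq GRCm38.p6, where 49 of 54 members had a promoter entry.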

Additional observations from a re-analysis of the deposited data

Results flagged for a closer look

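Counts of 8 measures held 1 library far from the other 3 of its day, by Dixon's gap test for 4 samples. Of 78 groups tested 8 stood out, and chance gives about 1 in 20, or 3.9. On day 0, replicate 1 was the high library in 6 of them. Krtap8-1 had 7169 counts there and 588 to 1691 in the others. Krtap5-5 had 491 counts against 10 to 49, Krtap5-2 had 401 against 0 to 36, Krtap5-3 had 160 against 0 to 21, and Krtap26-1 had 528 against 117 to 160. The hair shaft keratins held 0.0899% of counts in this library and 0.0121% to 0.0198% in the others. On day 10 the gaps were small in size, with 25 counts of Krtap3-2 in replicate 3 against 30 to 31, and 13 counts of Krtap7-1 in replicate 4 against 18 to 19.

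Krtap20-2, which missed the count rule, had up to 34 counts in a library of day 7, and at least 9 in each, against at most 5 on day 0.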

How the results depend on the processing

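None of the log2 fold changes compared across the alternative runs turned its direction. Counts of genes called have no direction to turn. With edgeR on the 8 libraries of a comparison alone, 33, 34 and 33 members were called lower on days 3, 5 and 10 against day 0 (10.9%, 7.33% and 4.06% of all genes in that fit), which were all the members that passed the filter there. Nearly all could pass it only through day 0, so these counts say nothing of stability. That fit called 0 lower and 2 higher on day 7 (4.52% and 3.3% of all genes), 26 higher on day 12 (2.95%) and 0 lower on day 14 (7.28%). DESeq2 called 2 lower on day 7 (4.73% of all genes in that fit), 14 higher from day 3 to 5 (1.99%) and 4 lower from day 12 to 14 (2.52%). limma on log2(FPKM + 1) called 0 lower and 19 higher on day 7 (1.34% of all genes each way), 0 lower on day 14 against day 0 (1.95%) and 4 lower from day 12 to 14 (0.387%). Without a fold limit, 14 were higher on day 7 (25.6% of all genes), 3 lower on day 14 against day 0 (34.5%) and 1 lower from day 7 to 12 (24.3%). From day 3 to 5, the 24 wound libraries gave 12 higher (2.03%) and an unadjusted p with the fold limit 1. The causes were not tested.

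Leaving out 1 library each, 2 to 5 members were lower and 2 to 42 higher on day 7, and 1 to 2 lower on day 14 against day 0. The summed level relative to day 0 ranged from 0.00214 to 0.00627 (day 3), 0.00699 to 0.0205 (day 5), 1.31 to 3.85 (day 7), 0.00521 to 0.0153 (day 10), 4.38 to 12.8 (day 12) and 4.64 to 13.6 (day 14), the highest each without day 0 replicate 1.

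With the replicate number as a block, 2 members were called lower on day 7 in place of 4. The numbers do not pair the libraries. Over 84 same-numbered pairs the correlation of deviations lay between -0.0762 and 0.177, with 1 over 0.1, and 8 of 28 libraries correlated best with their own number. Same-day libraries were no duplicates, with a lowest median chi-square of 1.47 against 0.455 for sampling noise. Counts near 0 on days 3, 5 and 10 limit differences between those days.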
